A study of Mus musculus with 50 samples.

Results

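The 10 genes described here encode the transcription factor NF-kB and proteins of its inhibitor family, measured in microglia sorted from the mouse hippocampus. They are the 5 subunits Nfkb1, Nfkb2, Rel, Rela and Relb, the 3 classical inhibitors Nfkbia, Nfkbib and Nfkbie, and the 2 nuclear inhibitor-like proteins Nfkbiz and Bcl3. They were chosen by gene symbol, each symbol matched a single row, and all 10 were among the 16696 genes tested of the 53700 in the files.

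Poly-A RNA was sequenced from 50 male C57BL/6J mice, 1 library per mouse. Early-life stress (ELS) was given as limited bedding and nesting material from postnatal day (P) 2 to P9, and control (CTR) litters had standard material. There were 12 P9-CTR and 13 P9-ELS mice without an injection, and at P200 there were 7 CTR and 6 ELS mice injected with PBS, the saline vehicle, and 7 CTR and 5 ELS mice injected with 1 mg/kg of lipopolysaccharide (LPS), a bacterial cell wall component. The P200 mice were taken 3 h after the injection. Microglia were sorted as CD45int CD11b+ cells, after a Percoll step that was used in adults and not at P9.

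NF-kB proteins act as dimers. In a resting cell, most dimers are bound in the cytoplasm by inhibitor (IkB) proteins. Signals from receptors such as the LPS receptor activate the IKK kinases, the inhibitor is degraded, and the dimer enters the nucleus. Several of the genes it then switches on encode its own inhibitors and subunits, so the system carries built-in feedback, and in microglia it drives much of the inflammatory response.

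Library totals ranged from 5152838 to 42231258 counts. Mice are named by the figure before the point of the label, treated here as a nest number, and by their own number after it. The labels do not define that figure. Taken as nests, the 12 P9-CTR mice came from 5 nests and the 13 P9-ELS mice from 4. In 47 mice between 16485 and 21100 genes had a count. The other 3 libraries stood apart, P200-CTR-PBS mouse 1 of nest 1 with 12854 genes, P9-ELS mouse 2 of nest 19 with 15731 and P9-ELS mouse 3 of nest 19 with 12482, and results that rest on them are given with and without them. All 7 microglia markers were detected and their summed level was between 31633 and 76700.1 CPM (counts scaled to the size of the library). The 7 neutrophil markers summed to at most 9.17 CPM in any mouse and the 6 lymphocyte markers to at most 0.675 CPM, and none of these 13 markers passed the filter on low counts. In RNA of sorted cells, a change in the share of cells and a change in RNA per cell cannot be told apart.

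In GRCm39 the subunit genes lie at chr3:135290264-135397742 (Nfkb1), chr19:46292759-46303812 (Nfkb2), chr11:23686847-23721264 (Rel), chr19:5687493-5698161 (Rela) and chr7:19339017-19363425 (Relb). The inhibitor genes lie at chr12:55535332-55539432 (Nfkbia), chr7:28457486-28466937 (Nfkbib), chr17:45866585-45874661 (Nfkbie), chr16:55631738-55659262 (Nfkbiz) and chr7:19541553-19557570 (Bcl3). Exons of annotated genes on the opposite strand overlap exons of Nfkb1 (Gm65585), Nfkb2 (4833438C02Rik and Psd), Rela (Gm56632), Nfkbia (Gm36634), Nfkbib (Ccer2, Gm71901 and Sirt2) and Bcl3 (Gm16175), and the strand setting of the counting is not given in the sources used here, so reads in those overlaps are uncertain.

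NF-kB dimers bind a sequence known as the kappaB site. The stretches of the members' own promoters that hold such a sequence are shown, as the members rose after LPS in CTR mice. Any part of these sequences in the rise was not tested. The kappaB consensus was searched on both strands in RefSeq windows from 250 bases before to 50 bases after each start site (GRCm38.p6), which were placed in GRCm39 by exact match. Of 32544 promoter windows of this length, 4.53% held a match. Windows were found for 7 of the members, and at least 1 match was present for Nfkb2, Rel, Nfkbia, Nfkbie and Bcl3, and none for Rela and Nfkbib. A looser pattern of GGG, 5 bases of any kind and CC was present in 51% of all windows and is not informative. The 200 bases before the Nfkbia start site, on the strand of the gene at chr12:55539433-55539632 and within the gene model Gm36634 but in no exon, are given first, with the match in capitals.
Nfkbia, 200 bases upstream: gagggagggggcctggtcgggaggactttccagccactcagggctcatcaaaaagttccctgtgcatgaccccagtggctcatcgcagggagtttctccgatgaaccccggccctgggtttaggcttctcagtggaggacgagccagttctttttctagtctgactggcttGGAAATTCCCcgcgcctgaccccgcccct
The matches in the other promoters are given with the bases around them, 30 in all, on the strand of the gene and with the match in capitals. The Nfkbie site at chr17:45866510-45866539 lies outside annotated genes, and the Rel site (chr11:23721042-23721071), the Bcl3 site (chr7:19556659-19556688) and the Nfkb2 sites (chr19:46293127-46293156 and chr19:46293155-46293184) lie in 5′ untranslated exon sequence of some GENCODE transcript of the gene.
Nfkb2, bases -39 to -29: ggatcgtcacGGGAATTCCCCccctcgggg
Nfkb2, bases -11 to -2: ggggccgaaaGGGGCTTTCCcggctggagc
Rel, bases -92 to -82: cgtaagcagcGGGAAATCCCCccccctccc
Nfkbie, bases -106 to -97: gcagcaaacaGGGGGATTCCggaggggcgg
Bcl3, bases 3 to 12: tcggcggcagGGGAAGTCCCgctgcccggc
Positions are counted from the start site, with no base 0. Nfkb2 had 2 further windows at other start sites, which also held matches. A match describes these letters only.

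The level of the members differed widely before any injection. Expressed per kilobase of exon, in PBS-injected CTR mice Nfkbia was highest with a mean of 70.9 CPM per kb, followed by Rela with 24.4, Nfkb1 with 14.2, Nfkbib with 13.4, Rel with 12.5 and Nfkbie with 10.7. Nfkbiz, Nfkb2 and Relb were between 1.16 and 1.74 CPM per kb, and Bcl3 was at 0.0211. Nfkb1, Nfkbib and Rel were closer to each other than their SDs. The rank of Nfkb1 depended on the length used, since its exons in all transcripts together span 12848 bases and its longest transcript 4802 bases. With the longest transcript, Nfkb1 was at 38.1 CPM per kb in these mice and above Rela at 27.2.

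**Figure D1:**
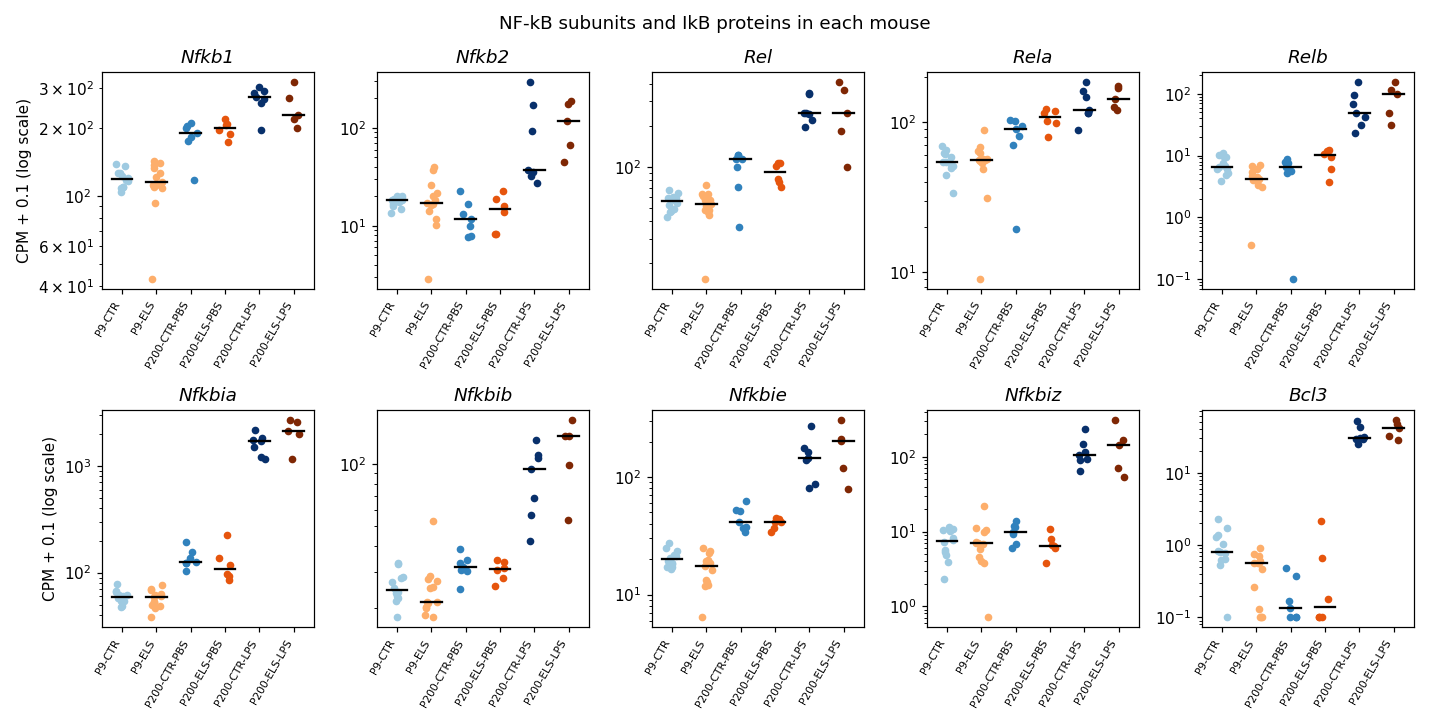
Level of each gene in each mouse, as CPM plus 0.1 on a log axis, by group (12, 13, 7, 6, 7 and 5 mice from left to right), with a line at the group median. Nfkbia, Nfkbiz, Relb, Nfkb2 and Bcl3 were far higher in both LPS groups, Nfkb1 and Rela moved little, and single PBS or P9-ELS mice were far below their groups for several genes.

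The effect of LPS was examined first. All 10 members rose in CTR mice (10 of 10 with adjusted p under 0.05 in edgeR's quasi-likelihood test, against 8.73% of all tested genes that rose), and 8 of 10 rose in ELS mice (against 7.4%). The CTR count rests on Rela at its margin: with a block for the nest number 9 were called, and the call of Rela was lost in 10 of 24 alternatives. No member fell (0 of 10 in either condition, against 6.2% of all genes in CTR and 4.94% in ELS mice, and 0 in DESeq2). Median log2 fold changes over the members were 2.35 in CTR and 2.60 in ELS mice, with medians over all tested genes of 0.0047 and -0.035. Log2 fold changes in CTR mice were above 3.5 for the inhibitor Nfkbia, the nuclear proteins Nfkbiz and Bcl3 and the subunit Relb, and under 1 for Rela and Nfkb1 of the canonical dimer.

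Nfkbia encodes IkB-alpha, the inhibitor that is degraded and remade within hours of a stimulus. In PBS-injected CTR mice its level had a lowest value of 103.6, a median of 124.6 and a highest value of 195.3 CPM, and in LPS-injected CTR mice 1169.5, 1711.9 and 2151.8 CPM. In PBS-injected ELS mice the values were 86.1, 107.2 and 224.2 CPM, and the 5 LPS-injected ELS mice had 1173.6, 1995.8, 2107.9, 2603.2 and 2697.9 CPM. Every LPS mouse was above every PBS mouse in both conditions. LPS raised Nfkbia by 3.56 ± 0.19 (SE) on the log2 scale in CTR mice (adjusted p = 6.65e-21) and by 4.07 ± 0.21 with ELS (adjusted p = 3.82e-21).

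The other classical inhibitors rose less. Nfkbib, which encodes IkB-beta, had a lowest, median and highest value of 24.6, 31.5 and 38.6 CPM in PBS and 41.9, 94.4 and 131.3 CPM in LPS mice of the CTR condition. The ELS condition had 25.3, 30.8 and 34.0 CPM with PBS and 53.24, 98.5, 136.8, 137.2 and 163.7 CPM in the 5 LPS mice. The groups did not overlap in either condition, and the rise was 1.46 ± 0.21 with CTR and 1.959 ± 0.24 with ELS on the log2 scale (adjusted p = 4.88e-07 and 9.56e-09).

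Nfkbie, which encodes IkB-epsilon, was 33.7, 40.9 and 62.3 CPM with PBS and 79.6, 146.1 and 269.9 CPM with LPS in CTR mice. With ELS the level was 34.0, 41.4 and 44.5 CPM with PBS and 78.5, 119.7, 200.4, 210.3 and 304.7 CPM in the LPS mice. Again no LPS mouse fell within the PBS range. On the log2 scale this was a rise of 1.75 ± 0.24 with CTR and 2.18 ± 0.27 with ELS (adjusted p = 1.07e-07 and 1.10e-08).

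The nuclear inhibitor-like proteins do not hold dimers in the cytoplasm but act in the nucleus on dimers of p50 and p52. Nfkbiz (IkB-zeta) was 5.92, 9.77 and 13.6 CPM with PBS and 63.9, 104.3 and 234.3 CPM with LPS in CTR mice. In the ELS condition it was 3.69, 6.41 and 10.7 CPM with PBS and 52.9, 71.0, 142.4, 169.9 and 311.7 CPM in the LPS mice. The PBS and LPS groups were fully separate. Its log2 rise was 3.63 ± 0.42 with CTR and 4.44 ± 0.48 with ELS (adjusted p = 1.79e-09 and 3.19e-10).

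Bcl3 was almost absent without LPS, with 0 to 10 counts in the 7 CTR mice and 0 to 38 counts in the 6 ELS mice injected with PBS, of which 3 in each group were at 0. After LPS it was 25.2, 30.3 and 52.4 CPM in CTR mice and 28.5, 31.8, 41.3, 46.8 and 53.32 CPM in the 5 ELS mice. The fitted rise on the log2 scale was 8.08 ± 0.88 with CTR (adjusted p = 3.27e-10) and 6.57 ± 0.87 with ELS (adjusted p = 7.08e-08), and at such low PBS counts its size depends on single mice. Without ELS mouse 2 of nest 20 (2.06 CPM) the ELS value was 8.42, and without CTR mouse 2 of nest 5 (0.389 CPM) the CTR value was 8.81.

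Among the subunits, Relb and Nfkb2, which form the noncanonical dimer, had low levels with PBS and rose in all comparisons with LPS. Nfkb2 was 7.65, 11.6 and 22.3 CPM with PBS and 27.2, 36.7 and 296.1 CPM with LPS in CTR mice, so that the highest LPS mouse was 10.9 times the lowest. ELS mice had 8.201, 14.9 and 22.6 CPM with PBS and 44.5, 67.0, 117.3, 176.6 and 186 CPM in the LPS mice. Every LPS mouse was above every PBS mouse, with a log2 rise of 2.96 ± 0.43 with CTR and 3.02 ± 0.48 with ELS (adjusted p = 4.93e-07 and 3.33e-06). Without CTR mouse 2 of nest 8, the highest, the CTR value was 2.37, and with a block for the nest number it was 2.03 (adjusted p = 0.000519).

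Relb was 0, 6.35 and 8.77 CPM with PBS, with the 0 in mouse 1 of nest 1, and 23.5, 49.5 and 156.6 CPM with LPS in CTR mice. ELS mice had 3.58, 10.0 and 12.3 CPM with PBS and 31.0, 49.5, 100.6, 113.7 and 155.05 CPM in the LPS mice. The groups did not overlap, and LPS raised Relb by 3.52 ± 0.49 with CTR and 3.33 ± 0.53 with ELS on the log2 scale (adjusted p = 1.78e-07 and 4.49e-06). Without the 3 libraries with few detected genes the CTR value was 3.30 ± 0.36 (adjusted p = 3.76e-10).

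Rel, the c-Rel subunit of immune cells, was 36.1, 113.2 and 122.3 CPM with PBS and 194.4, 247.6 and 345.1 CPM with LPS in CTR mice. The ELS values were 70.6, 91.5 and 105.8 CPM with PBS and 99.4, 183.3, 247.3, 365.6 and 417 CPM in the LPS mice. The CTR groups were separate, and in ELS mice the LPS mouse at 99.4 CPM lay within the PBS range. Rel rose by 1.43 ± 0.23 with CTR and 1.54 ± 0.26 with ELS on the log2 scale (adjusted p = 4.49e-06 and 1.37e-05).

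Nfkb1 encodes p105 and, by processing, p50, and Rela encodes p65, the partners of the canonical dimer. Nfkb1 was 117.8, 190.3 and 211.1 CPM with PBS and 195.9, 274.7 and 303 CPM with LPS in CTR mice, and 172.6, 200.6 and 218.2 CPM with PBS and 199, 218.9, 227.9, 272.7 and 320.3 CPM with LPS in ELS mice. Its groups overlapped in both conditions. Its log2 change was 0.55 ± 0.15 with CTR (adjusted p = 0.00563) and 0.32 ± 0.17 with ELS (adjusted p = 0.222).

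Rela was 19.4, 89.3 and 102.7 CPM with PBS and 88.5, 120.8 and 185.2 CPM with LPS in CTR mice, and 79.7, 108.3 and 121.8 CPM with PBS and 120.7, 126.1, 142.1, 169.3 and 172.3 CPM with LPS in ELS mice. Its log2 change was 0.74 ± 0.25 with CTR (adjusted p = 0.039) and 0.47 ± 0.28 with ELS (adjusted p = 0.325). The groups overlapped in both conditions. The lowest PBS value was that of mouse 1 of nest 1, and without this mouse the CTR value was 0.57 (adjusted p = 0.0951). Leaving out single mice ended the call in 6 of 14 fits, those without PBS mice 1 of nests 1, 15 and 18 and LPS mice 3 of nest 1 and 2 and 3 of nest 8 (adjusted p up to 0.101). Without all 3 libraries with few detected genes it was 0.57 with adjusted p = 0.00339, and the CTR value of Nfkb1 was 0.47 (adjusted p = 0.000234). Without them the ELS values of Nfkb1 and Rela stayed at 0.32 and 0.47 and reached adjusted p values of 0.021 and 0.0268.

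**Figure D2:**
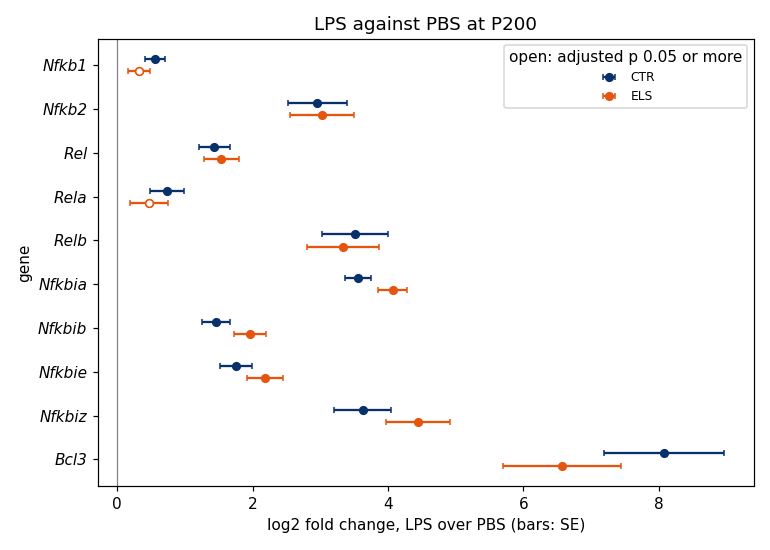
Log2 fold change of each gene after LPS against PBS in CTR and ELS mice at P200, with bars for the SE and open points where the adjusted p was 0.05 or more. Every point lies above 0, from 0.32 for Nfkb1 in ELS mice to 8.08 for Bcl3 in CTR mice.

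Groups were fully separate, with every LPS mouse above every PBS mouse, for 8 of the 10 members in CTR mice, all but Nfkb1 and Rela, and for 7 in ELS mice, all but Nfkb1, Rel and Rela. Of all tested genes 4.92% were separate in this way in CTR mice and 5.65% in ELS mice.

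Because inhibitors and subunits rose unequally, the ratio of their RNA levels changed. The 5 inhibitors counted here are the 3 classical ones and the 2 nuclear inhibitor-like proteins, which do not hold dimers in the cytoplasm. The summed level of the 5 inhibitors over that of the 5 subunits, per kilobase of exon in each mouse, had a mean of 2.15 ± 1.54 (SD, n = 7) in CTR mice with PBS, where mouse 1 of nest 1 stood at 5.58 and the median was 1.62, and of 8.19 ± 2.49 (n = 7) with LPS. In ELS mice it was 1.40 ± 0.37 (n = 6) with PBS and 9.56 ± 2.92 (n = 5) with LPS. Nfkbia accounted for 72.8% ± 3.9 of the inhibitor level in CTR mice with PBS and 89.1% ± 3.3 with LPS. Within the subunits Relb went from 2.00% ± 1.08 to 10.0% ± 3.8 of the level and Nfkb2 from 3.81% ± 3.87 to 8.72% ± 6.23, while Rela went from 43.5% ± 8.0 to 34.2% ± 3.9. The share of Nfkb1 also fell, and that of Rel went from 22.8% ± 2.6 to 28.8% ± 5.0. Without mouse 1 of nest 1 the CTR mice with PBS had a ratio of 1.58 ± 0.29 (n = 6), and shares of 2.33% ± 0.69 for Relb, 2.36% ± 0.58 for Nfkb2 and 46.4% ± 2.8 for Rela. Nfkb1 was then at 25.8% ± 3.1 and Rel at 23.2% ± 2.6. The subunit shares depended on the length used. With the longest transcript and all CTR mice, Nfkb1 was the largest subunit and went from 48.3% ± 7.4 with PBS to 34.5% ± 7.4 with LPS. Rela then went from 32.1% ± 7.2 to 27.2% ± 3.1. These shares are descriptions of summed RNA levels and say nothing of protein.

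**Figure D3:**
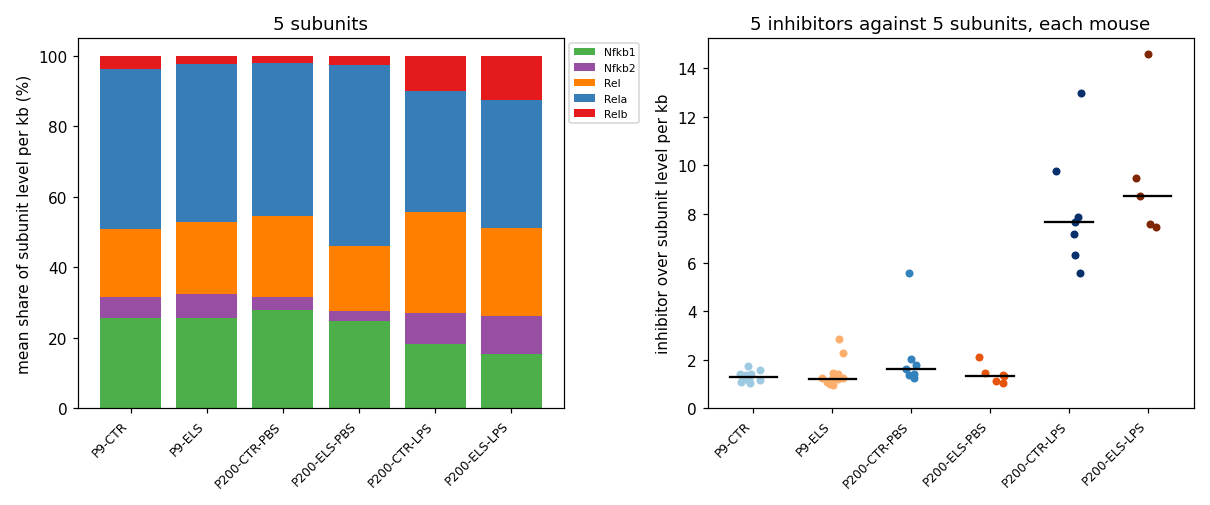
Left, mean share of each subunit in the summed subunit level per kilobase of exon in each group. Right, summed level of the 5 inhibitors over that of the 5 subunits in each mouse, with a line at the group median; the LPS mice lie between 5.55 and 14.6 and the other groups have medians between 1.201 and 1.62.

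The LPS response was next compared between ELS and CTR mice. No difference in response passed the test for any of the 10 members (edgeR, 0 of 10 with adjusted p under 0.05 and 0 with an unadjusted p under 0.05, against 0% and 5.87% of all tested genes, and 0 in DESeq2 as well). Nfkbia had the smallest p, with a log2 difference of 0.51 ± 0.26 in the direction of a larger rise in ELS mice (p = 0.0546, adjusted p = 0.857, 95% interval from -0.010 to 1.03). For Nfkb2 it was 0.065 ± 0.61, an interval from -1.15 to 1.28 that leaves differences of over 2-fold in either direction undetected. The comparison of ELS with CTR mice within LPS gave 0 called members (0% of all genes, 0 in DESeq2), and 1 member, Nfkbia, had an unadjusted p under 0.05, against 4.78% of all genes (log2 difference 0.39 ± 0.19, p = 0.0445, adjusted p = 1).

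ELS and CTR mice were also compared without LPS. At P200 with PBS no member was called (0 of 10, and 0.168% of all genes), and none had an unadjusted p under 0.05 in edgeR (9.71% of all genes) or a call in DESeq2. At P9 no member was called either (0 of 10, 0% of all genes, 0 in DESeq2), and 2 had an unadjusted p under 0.05, as did 5.47% of all genes. Relb at P9 was 3.78, 6.50 and 10.9 CPM as lowest, median and highest value in CTR and 0.253, 4.04 and 6.93 CPM in ELS mice, a log2 difference of -0.73 ± 0.34 (p = 0.0368, adjusted p = 0.908). The groups overlapped, and the lowest ELS mouse was mouse 2 of nest 19. Without the libraries with few detected genes the difference was -0.60 (adjusted p = 0.869). Bcl3 at P9 had a log2 difference of -1.35 ± 0.53 (p = 0.0144, adjusted p = 0.896) at levels of at most 2.22 CPM in any mouse, and of -1.19 (adjusted p = 0.869) without those libraries.

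Members also differed between the ages. The microglia of PBS-injected P200 mice were compared with those of P9 mice, which were neither injected nor passed through Percoll, so age, injection and isolation cannot be told apart. In CTR mice 6 of 10 members were called, 5 of them higher and 1 lower at P200, against 44.1% of all tested genes called in either direction. In ELS mice 6 of 10 were called, all of them higher, against 42.2% of all tested genes. By direction, 2911 of all 16696 genes were higher and 4445 lower at P200 in CTR mice, and 2863 were higher and 4182 lower in ELS mice.

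Nfkbia had the smallest adjusted p of the members in both conditions. At P9 it was 47.9, 59.1 and 77.6 CPM as lowest, median and highest value in CTR mice and 37.9, 59.4 and 75.8 CPM in ELS mice, all below the lowest PBS value at P200, 86.1 CPM. The difference was 1.204 ± 0.15 with CTR (adjusted p = 3.75e-09) and 1.13 ± 0.15 with ELS (adjusted p = 2.96e-08) on the log2 scale. Nfkbie was 16.5, 19.8 and 27.6 CPM in CTR and 6.28, 17.4 and 24.8 CPM in ELS mice at P9. It rose by 1.14 ± 0.20 in CTR and 1.27 ± 0.21 in ELS mice on the log2 scale (adjusted p = 8.1e-06 and 1.79e-06), and its P9 values lay below all P200 values. The share of all tested genes that were separate by age in this way was not determined, so the separation of Nfkbia and Nfkbie has no background to be read against.

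Of the subunits, Nfkb1, Rel and Rela rose in both conditions and Nfkb2 in neither. Nfkb1 rose by 0.61 ± 0.13 in CTR and 0.79 ± 0.13 in ELS mice (adjusted p = 9.84e-05 and 2.48e-06), from medians of 118.4 and 114.8 CPM at P9. Rel rose by 0.82 ± 0.20 and 0.78 ± 0.20 (adjusted p = 0.000748 and 0.00173). Nfkb2 had -0.47 ± 0.36 in CTR (adjusted p = 0.31) and -0.40 ± 0.38 in ELS mice (adjusted p = 0.42). Rela rose by 0.54 ± 0.22 in CTR (adjusted p = 0.0407) and 0.96 ± 0.22 in ELS mice (adjusted p = 0.000461), and in CTR mice the call was lost when any of 7 single mice was left out, with 0.47 and adjusted p = 0.0974 without mouse 1 of nest 5 as the weakest. Without the 3 libraries with few detected genes the Rela values were 0.72 in CTR (adjusted p = 7.27e-06) and 0.81 in ELS mice (adjusted p = 1.04e-06). Relb was called in ELS mice only, with 1.04 ± 0.40 (adjusted p = 0.0319) against -0.29 ± 0.41 in CTR mice, and the test of that difference gave 1.33 ± 0.58 (p = 0.025, adjusted p = 0.419), so the conditions were not shown to differ. Without ELS mouse 1 of nest 17 the ELS value was 0.93 (adjusted p = 0.0787). Without the 3 libraries with few detected genes the Relb values were -0.068 in CTR (adjusted p = 0.868) and 0.92 in ELS mice (adjusted p = 0.00826). The difference between the conditions was then 0.985 (adjusted p = 0.484).

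Bcl3 was the member that was lower at P200, by -2.87 ± 0.76 in CTR mice (adjusted p = 0.00179), from a P9 range of 0 to 73 counts to 0 to 10 counts. Without mouse 2 of nest 5 the value was -3.61. In ELS mice its value was 0.21 ± 0.69 (adjusted p = 0.83) and turned to -1.64 without mouse 2 of nest 20. The interaction of age and condition was called for none of the members (edgeR, 0 of 10 against 0.0299% of all genes, 0 in DESeq2), with unadjusted p under 0.05 for Bcl3 (p = 0.00388, adjusted p = 0.283) and Relb, and for 10.3% of all genes.

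**Figure D4:**
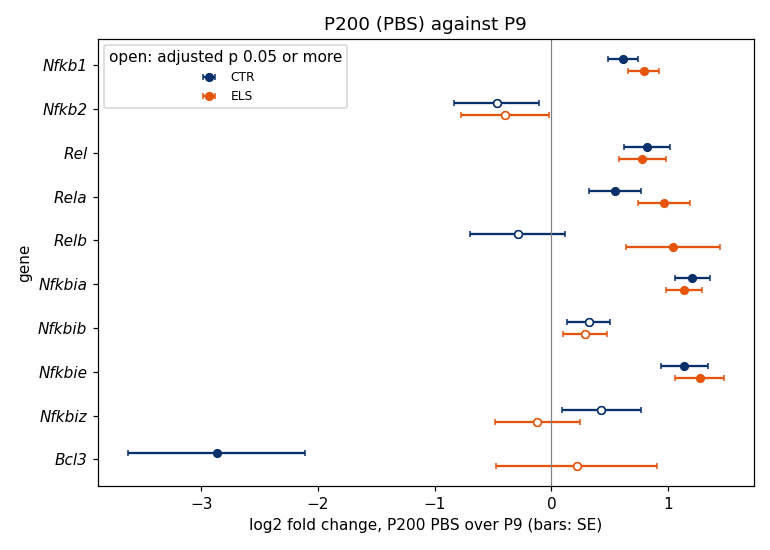
Log2 fold change of each gene in P200 mice with PBS against P9 mice in CTR and ELS, with bars for the SE and open points where the adjusted p was 0.05 or more. Nfkbia and Nfkbie lie above 1 in both conditions, and Bcl3 in CTR mice at -2.87.

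Other genes moved with age in these libraries. The 7 microglia markers summed to between 31632.9 and 60519.8 CPM at P9 and to between 70503.9 and 76700.1 CPM with PBS at P200. The 6 border-macrophage markers summed to between 475.3 and 919.8 CPM at P9 and to between 2.84 and 10.6 CPM with PBS at P200, nearly all of it Mrc1 (460.7 to 910.1 CPM at P9). The 4 astrocyte markers, among them Gfap and Slc1a2, summed to between 27.9 and 145.4 CPM at P9 and to at most 8.71 CPM with PBS at P200, and all 4 were called lower at P200 in each condition. The 3 neuron markers summed to between 10.1 and 56.7 CPM at P9 and between 2.49 and 11.6 CPM with PBS at P200, with 3 called lower in CTR and 2 in ELS mice. Of 4 tested monocyte markers 3 were lower at P200 in each condition, Vcan, Fn1 and Plac8. Immediate early genes, which respond to handling of cells, were higher at P200 for 6 of the 10 tested in each condition, and the 12 listed genes summed to between 49.9 and 377.1 CPM at P9 and between 400.6 and 607.3 CPM with PBS at P200. The part of these in the age differences of the members was not tested. After LPS the same list summed to between 5148.8 and 8707.7 CPM, and 8 of 10 tested genes rose in each condition.

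Mice that received LPS differed among themselves. Over the 12 LPS mice, deviations of log2 CPM from the mean of the group were compared for the 45 pairs of members, as a description without a test. Pearson's r was above 0 for 44 of 45 pairs with a median of 0.54. It was highest between Relb and Nfkbie (r = 0.963, Spearman's rho = 0.937), Nfkb2 and Relb (r = 0.942, rho = 0.916), Nfkbib and Nfkbie (r = 0.936, rho = 0.888) and Rel and Nfkbiz (r = 0.921, rho = 0.965). Without the 2 mice farthest from the median of the first gene of each pair, r was 0.941, 0.919, 0.886 and 0.877. For Nfkbia r was between -0.19 (Nfkb1) and 0.47 (Nfkbib), and leaving out 2 mice in the same way gave 0.56 with Rel and -0.10 with Nfkbib. Low values were not limited to Nfkbia, with r = 0.058 for Rel and Rela and 0.074 for Rela and Bcl3. Mice 2 and 3 of nest 8 were the highest of the CTR group for Nfkb2 and Relb, and the points share library, depth and nest. Pairs of other genes were not examined, so the positive values are not shown to be particular to the members.

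**Figure D5:**
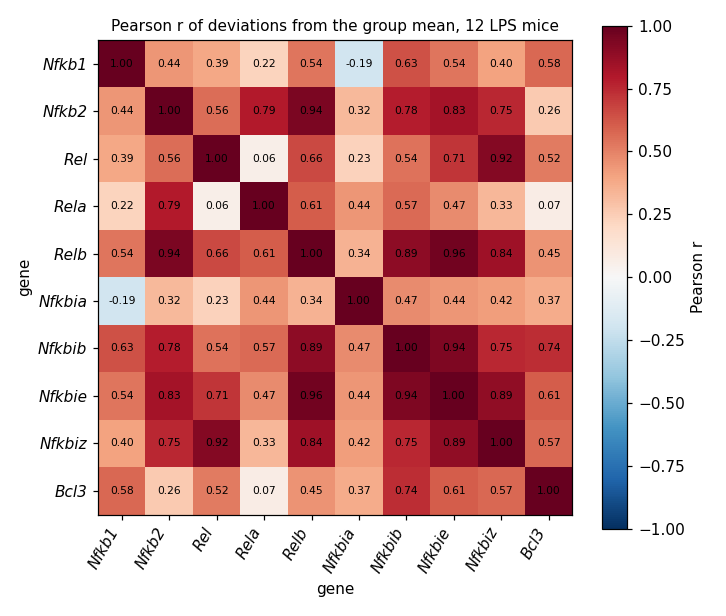
Pearson's r between members over the 12 LPS mice, computed on deviations from the group mean. Nfkb2, Relb, Nfkbib, Nfkbie and Nfkbiz form a block of values from 0.75 to 0.96, and the row of Nfkbia stays below 0.5.

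Markers of other cell types were read beside the LPS result. The 5 dendritic cell markers summed to between 1.96 and 9.56 CPM with PBS and 4.86 and 44.5 CPM with LPS, mostly Zbtb46, which rose by 1.43 ± 0.45 with CTR and 2.12 ± 0.51 with ELS on the log2 scale. The 6 monocyte markers summed to at most 11.3 CPM in any mouse. Of these Fn1 rose in CTR mice by 4.68 ± 1.097 (adjusted p = 0.00151), with at most 2.58 CPM after LPS, and Vcan in ELS mice by 5.25 ± 1.35 (adjusted p = 0.00498), with at most 2.14 CPM. The border-macrophage marker Cbr2 rose in CTR mice by 3.37 ± 0.90 (adjusted p = 0.00624, at most 0.583 CPM) and the astrocyte marker Gfap in ELS mice by 3.92 ± 0.86 (adjusted p = 0.000787, at most 4.06 CPM). The microglia gene Sall1 fell by 1.73 ± 0.16 with CTR and by 2.01 ± 0.18 with ELS. The part of these in the rise of the members was not tested.

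The rest of the pathway was read from lists of genes around NF-kB. Of 13 genes of the IKK complex and upstream kinases 2 rose with LPS in CTR mice, Map3k8 (Tpl2) by 4.55 ± 0.24 and Ripk1 by 1.97 ± 0.32 on the log2 scale, and 1 rose in ELS mice, Map3k8 by 4.49 ± 0.26. Ripk1 had 0.66 ± 0.35 in ELS mice (adjusted p = 0.24), where its level with PBS was already above that of CTR mice (1.43 ± 0.33, adjusted p = 0.0466), and its response was not shown to differ (-1.31 ± 0.48, adjusted p = 0.558). Of 9 TRAF adaptors and cIAPs 3 rose in each condition, among them Birc3 (cIAP2) by 2.64 ± 0.26 in CTR and 3.19 ± 0.29 in ELS mice. Of 9 genes that limit NF-kB signaling (deubiquitinases, ABIN proteins, the ubiquitin ligase Itch and the adaptor Tax1bp1), 4 rose in both conditions. Tnip3 and Tnfaip3 (A20, 3.57 ± 0.47 in CTR mice) rose most, and Itch fell by 0.45 ± 0.15 in CTR mice. Of 14 other nuclear regulators 3 rose in CTR and 2 in ELS mice, among them Nfkbid (IkBNS) by 2.68 ± 0.40 in CTR mice, and Nkap fell by 0.53 ± 0.17 in CTR mice. Of 28 tested NF-kB target genes 26 rose in CTR and 27 in ELS mice. The largest rises in CTR mice were those of Ptgs2 (9.87 ± 0.95), Il12b (9.42 ± 1.14), Cxcl2 (8.80 ± 1.52) and Cxcl10 (7.89 ± 0.73). Ptgs2, Il12b and Cxcl2 were near absent in CTR mice with PBS, with means of 0.176, 0.076 and 0 CPM. The medians were 3.88 and 4.47 for the targets, and all other median changes of the lists above were between -0.14 and 1.14.

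The gene whose pattern over the 6 group means was most like a member's, by the root mean square difference of centred log2 CPM, was Vezf1 for Nfkb1 (0.044), Aar2 for Rela (0.049), Sertad2 for Nfkbie (0.095) and Arl5b for Rel (0.098). It was Gm47079 for Nfkbiz (0.112), Phf23 for Nfkbib (0.115), Trim30c for Nfkbia (0.161), Gm13590 for Nfkb2 (0.201), Fos for Bcl3 (0.222) and Ppp1r3d for Relb (0.321). The distances rest on 6 points each.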

How the data were processed

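Per the labels and the study's methods, the authors mapped reads to GRCm39 and counted reads per gene with HTSeq 0.11.0, after bcl2fastq 2.20 and cutadapt 2.10 per the submitters' processing notes. The deposited values are raw counts per gene, 1 file per mouse and without normalization. The annotation release and strand setting are not given in the sources used here. Groups came from the labels. The number before the point of a mouse label was treated as a nest. Whole litters were assigned to ELS or CTR, while the main test treats mice of a nest as independent. Its SEs and p-values therefore do not allow for likeness within a litter. Replicates are separate mice.

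Genes that reached 1 CPM in over 2 mice were retained, and their TMM-normalized counts were fitted with 6 group means over all 50 mice in edgeR 4.0.16 (R 4.3.3). Contrasts were tested with the quasi-likelihood test and Benjamini-Hochberg adjustment over 16696 genes, and errors are SEs or SDs. A prior count of 2 entered the log2 CPM. On simulated data, the same procedure was checked for LPS against PBS in CTR mice with 16696 genes, and it recovered 134 of 200 changed genes (67%) at a true log2 fold change of 2 with 4 false calls. Gene lengths and positions came from GENCODE, with 52610 of 53700 genes found. The members, the lists and the rule for named genes (all members, up to 4 genes of a list with the largest change past the test, and the most similar gene) were chosen with earlier results of these data known. Alternatives included DESeq2 1.42.0, limma 3.58.1 voom, other filters, nests and leaving out each mouse.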

Additional observations from a re-analysis of the deposited data

Results flagged for a closer look

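In groups of 5 to 7 mice, 40 combinations of member and group were examined for a mouse whose gap to the next mouse is large against the range of its group, and 6 were found. By chance about 1 in 20 groups would be. PBS-injected CTR mouse 1 of nest 1, the library with few detected genes, was lowest for Nfkb1 (117.8 CPM, next 174.4), Rela (19.39 CPM, next 69.93) and Relb (0 CPM, next 5.174). LPS-injected CTR mouse 3 of nest 5 was lowest for Nfkb1 (195.9 CPM, next 257.5). PBS-injected ELS mouse 1 of nest 4 was highest for Nfkbia (224.2 CPM, next 137.2), and mouse 2 of nest 20 was highest for Bcl3 (2.064 CPM, next 0.5688, 38 counts).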

How the results depend on the processing

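Over all alternatives the number of members called was 8 to 10 for LPS in CTR and in ELS mice, 3 to 8 for age in CTR and 3 to 7 in ELS mice, and 0 in every comparison of ELS with CTR mice and every interaction. Adding a threshold of 1 on the absolute log2 fold change moved both age counts from 6 to 3. The nest numbers were not taken to pair the mice, as deviations of PBS and LPS mice of a number correlated between -0.0411 and 0.0841. As a hint from the data and not the design, 4 of 10 nests correlated best with their own number. With a replicate block for the nest number, 9 members were called for LPS in CTR mice (Rela lost, 0.85, adjusted p = 0.057) and 8 in ELS mice, and Nfkb2 in CTR mice was 2.03. Rela after LPS in CTR mice was also lost without a filter, with the groups compared alone and with counts summed per nest (adjusted p from 0.0589 to 0.0843), and was between 0.57 and 0.82 when single mice were left out, with the call lost in 6 of 14 fits. Shares without the libraries with few genes were added after seeing the data. Rela with age in CTR mice was lost without a filter, with voom and with counts summed per nest, Relb with age in ELS mice with voom and with counts summed per nest, and Rel in ELS mice with counts summed per nest (adjusted p from 0.0504 to 0.236). Nfkbiz with age in ELS mice (main -0.12) turned to 0.24 with voom, to 0.026 with counts summed per nest, and ranged from -0.30 to 0.093 with single mice left out. Bcl3 with age in ELS mice (main 0.21) turned to -0.0011 without the libraries with few genes, to -1.33 with voom, and ranged from -1.64 to 0.52 with single mice left out. The cause was not tested. In Bcl3 after LPS, other fits gave 8.66 and 8.77 in CTR mice and 7.84 and 8.78 in ELS mice (block and voom), and Relb in CTR mice was 4.198 with voom. Levels per length of Nfkb1 with the longest transcript were between 23.9 and 55.8 CPM per kb.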
